A study of Mus musculus with 6 samples.

Results

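The mRNAs of translation initiation and elongation factors were compared between CD4 T cells with and without Dicer. Members were the genes whose platform annotation symbol starts with Eif or Eef and a digit, on array rows with exactly 1 symbol, leaving out the eIF2 kinases (Eif2ak) and the Eif2c synonyms of Argonautes. This gave 57 genes of 19935 measured, on 67 rows, with 8 genes on several rows that were averaged. Dicer KO animals carried floxed Dicer alleles (Dicer lox/lox) and were CD4Cre positive, and Dicer WT animals carried the same floxed alleles and were CD4Cre negative. Both genotypes were untreated, and no label gives the age, sex or strain of the mice. CD4+CD62L- T cells, labelled resting, were sorted from lymph nodes, and total RNA of 3 biological replicates per genotype was amplified and measured on MoGene 1.0 ST arrays, 1 colour each. The Cre is driven by the Cd4 promoter, which is active from a thymic stage that precedes the split into CD4 and CD8 cells.

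Translation starts when eIF2 brings the initiator tRNA to a small ribosomal subunit held ready by eIF1, eIF1A, eIF3 and eIF5, while the eIF4 factors bind the mRNA cap and unwind the leader. eIF2B reloads eIF2 with GTP, eIF5B joins the subunits, and eEF1 and eEF2 then carry elongation. In T cells, which are small and make little protein at rest, the output of this machinery is raised on activation. A group of its mRNAs starts with a terminal oligopyrimidine (TOP) tract, as the mRNAs of ribosomal proteins do, and these are translated together under control of mTOR.

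In the deposited log2 table the median of the 6 arrays had been taken off every row, so a value shows how an array differs from the others and gives no expression level. In bulk RNA, fewer cells of a type and less RNA per cell cannot be told apart. Differences are Dicer KO minus Dicer WT with the SE of the limma fit (n = 3 per genotype), and a gene was called at an adjusted p under 0.05 over all genes. The centred values give no level of a lineage marker either. A coarse level class was read from the binary step of the stored numbers. The higher class held 6 of 7 T cell markers and 1 of 2 CD8 T cell markers (Cd8b1). It held 1 of 7 B cell markers and 0 of 7 myeloid markers. Of 216 ribosomal protein rows 90.3% were in the higher class, and of 1035 olfactory receptor rows 3.09%. The class of a single row may be mistaken. Dicer1, the targeted gene, had 0.21, -0.02 and -0.09 on the arrays labelled Dicer KO and 0.12, 0.02 and -0.10 on those labelled Dicer WT (0.02 ± 0.09, adjusted p = 0.949). Its row could not be placed relative to the deleted part here, so it does not check the labels, and the directions below rest on them.

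The members did not move one way. Of the 57, 5 rose in Dicer KO (Eif3c, Eif4g2, Eif4h, Eif2s2 and Eif2b5) and 4 fell (Eef1b2, Eef1d, Eif3h and Eif1b), which is 15.8% called against 8.73% of all genes. The background was 5.94% of all genes higher and 2.79% lower. The median difference was -0.037 over the members and -0.011 over all genes. The higher level class held 28 of the 57 members, against 3512 of the 19935 genes. In that class 3 members rose and 2 fell (17.9% called), against 23.7% of its genes called, 19.5% higher and 4.27% lower. In the lower class 2 of 29 members rose and 2 fell (13.8% called), against 5.52% of its genes, 3.04% higher and 2.48% lower. For 25 members (43.9%) no Dicer KO array fell within the range of the Dicer WT arrays or the reverse, against 26.2% of all genes. By class these were 15 of 28 members, against 45.7% of genes in the higher class, and 10 of 29, against 22% in the lower class. Without Dicer KO 2 the calls numbered 2 higher and 1 lower, without Dicer WT 1 they numbered 2 and 2, while leaving out Dicer WT 2 gave 3 and 3, as did leaving out Dicer KO 3.

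**Figure D1:**
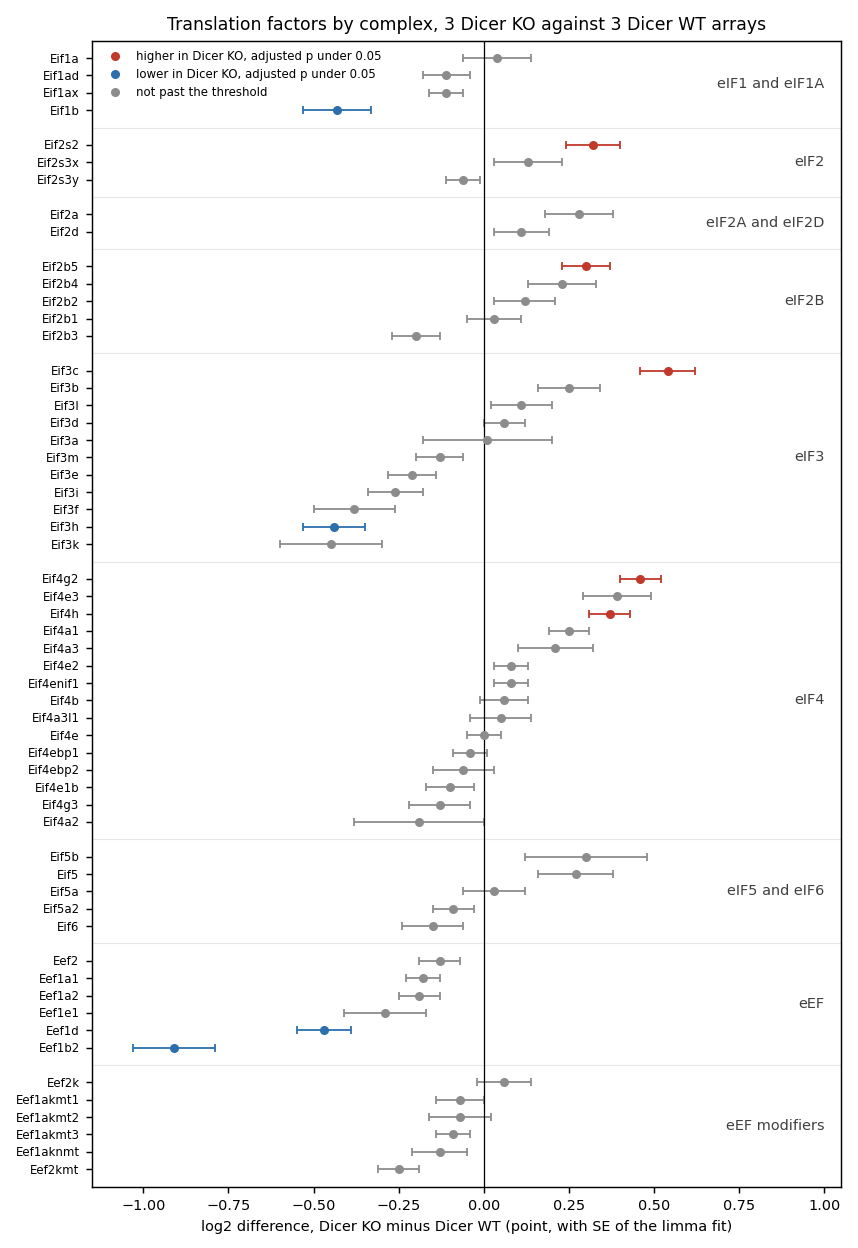
Log2 difference of each of the 57 factors, Dicer KO minus Dicer WT, grouped by complex (points, with the SE of the limma fit, 3 arrays per genotype). Red points are the 5 genes called higher in Dicer KO, blue points the 4 called lower and grey points the 48 not called. All 6 members of the eEF group lie left of 0, and the eIF3 subunits spread from -0.45 to 0.54.

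Markers of other cells and the arrays' own spread are given here once. All 7 measured B cell markers had a positive difference and 0 were called (lowest limma adjusted p 0.0717, 5 at an unadjusted p under 0.05). Their median was 0.058, 0.049 and 0.12 on Dicer KO 1 to 3, against -0.56, 0.016 and -0.22 on Dicer WT 1 to 3. When the WT arrays with the lowest B cell marker medians (replicates 1 and 3) were left out, limma called 0 members in either direction, with 10 at an unadjusted p under 0.05, a lowest adjusted p of 0.0775 and Dicer WT 2 as the lone WT array, in a fit chosen after seeing the data. Among the 9 genes called with all arrays, Eef1b2 was at -0.79 there, Eif3c at 0.51, Eif4g2 at 0.42 and Eif4h at 0.41. Eif2s2 was at 0.39, Eif2b5 at 0.35, Eef1d at -0.40, Eif3h at -0.37 and Eif1b at -0.27. The genotypes' arrays lay apart for each of the 9, so leaving out arrays could not turn a sign. Of 7 myeloid markers Lyz2 alone was called, by 0.69 ± 0.12 (adjusted p = 0.0165). The NK cell marker Klrd1 had 1.27, 0.93 and -0.01 in Dicer KO and -0.19, -0.23 and 0.01 in Dicer WT (0.87 ± 0.30, adjusted p = 0.136), and 0 of 3 NK markers were called (1 at an unadjusted p under 0.05). Of 7 T cell markers Cd4 rose by 0.67 ± 0.07 (adjusted p = 0.00328) and Cd5 fell (-0.44 ± 0.06, adjusted p = 0.00704). Of 2 CD8 T cell markers limma called 0, with Cd8b1 at -0.26 ± 0.07 and no overlap between genotypes (adjusted p = 0.0567). No marker of dendritic cells (4 measured), stroma (4) or erythroid cells (1) was called. The part of these cells in the results was not tested. Xist and the Y-linked Kdm5d and Uty did not differ between genotypes at the threshold (adjusted p 0.836, 0.796 and 0.995).

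Members of the eEF group had negative differences throughout, and 2 of the 6 fell (33.3%, against 2.79% of all genes lower). The group follows the gene symbols and includes Eef1e1, a part of the multisynthetase complex and not an elongation factor. Arrays of the genotypes lay apart for 5 of the 6, against 26.2% of all genes. In the higher level class, which holds 3 of the 6, 4.27% of genes fell and 45.7% had arrays apart. Eef1b2, a guanine nucleotide exchange subunit that recharges eEF1A, had -0.61, -0.37 and -0.35 on the Dicer KO arrays, against 0.36, 0.35 and 0.71 on the Dicer WT arrays. The genotypes were well apart, with Dicer WT 3 the highest array and Dicer KO 1 the lowest, and the fold was the largest of all members, at 1.88-fold lower in Dicer KO (-0.91 ± 0.12, adjusted p = 0.0053). Eef1d, another exchange subunit, had -0.37, -0.25 and -0.15 in Dicer KO and 0.16, 0.15 and 0.34 in Dicer WT. Its arrays did not overlap either, and it was 1.38-fold lower in Dicer KO (-0.47 ± 0.08, adjusted p = 0.0139; not called without Dicer KO 2, adjusted p = 0.0624). Eef1b2 was called without any 1 of the 6 arrays (adjusted p 0.00619 to 0.0268).

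Eef1a1, which delivers aminoacyl-tRNAs to the ribosome and is among the most abundant mRNAs of most cells, had -0.18, -0.04 and -0.11 in Dicer KO and 0.10, 0.08 and 0.04 in Dicer WT. The arrays did not overlap, but the difference of -0.18 ± 0.05 was not called (adjusted p = 0.0955, 95% interval -0.31 to -0.05). Centring each array inside its level classes, a setting added after seeing the data, gave a call (-0.26, limma adjusted p = 0.032). No other alternative called Eef1a1. Eef2, the translocase, had -0.15, -0.06 and 0.00 in Dicer KO and 0.07, 0.00 and 0.10 in Dicer WT, also without overlap before rounding. Its difference was -0.13 ± 0.06 (adjusted p = 0.265, 95% interval -0.26 to 0.01). Eef1a2, the form of muscle and nerve cells, had a difference of -0.19 ± 0.06 (adjusted p = 0.101), and Eef1e1, which sits in the multisynthetase complex, one of -0.29 ± 0.12 (adjusted p = 0.2).

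Of the 6 enzymes that modify elongation factors, limma called 0, with 1 at an unadjusted p under 0.05. Eef2kmt, a methyltransferase of eEF2, had -0.15, -0.05 and -0.21 in Dicer KO and 0.10, 0.20 and 0.05 in Dicer WT, with no overlap and a difference of -0.25 ± 0.06 (adjusted p = 0.0579). Eef2k, the kinase that inhibits eEF2, had a difference of 0.06 ± 0.08 with a 95% interval of -0.13 to 0.25. The eEF1A methyltransferases Eef1akmt1, Eef1akmt2, Eef1akmt3 and Eef1aknmt had differences of -0.07, -0.07, -0.09 and -0.13.

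**Figure D2:**
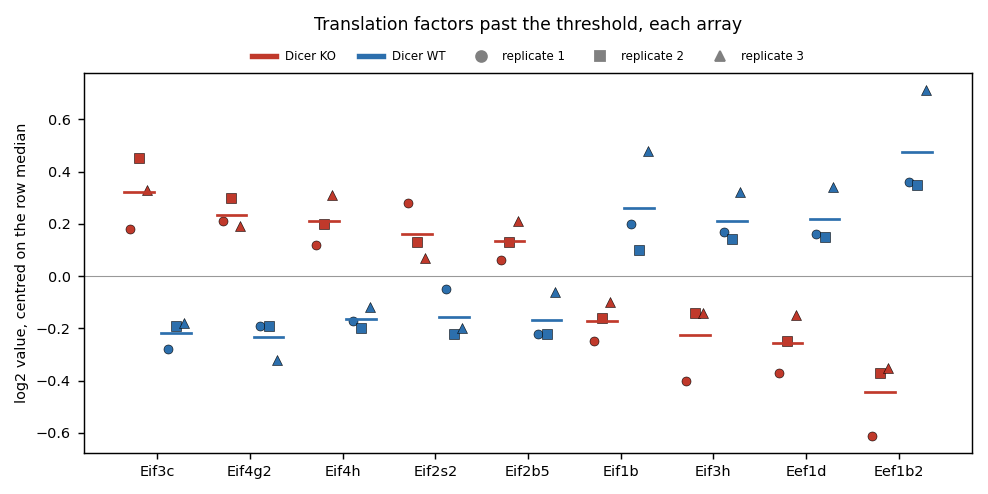
Centred log2 values of the 9 called factors on each array, from the largest rise to the largest fall (red, Dicer KO; blue, Dicer WT; bars, group means; symbols, replicate numbers). For each of the 9 the genotypes lie apart, and Eef1b2 has the widest gap, between -0.35 in Dicer KO and 0.35 in Dicer WT.

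TOP members were taken from a chosen list of mRNAs known to start with a TOP tract, which need not be complete. It held 8 of the members: Eef1a1, Eef1b2, Eef1d, Eef2, Eif3e, Eif3f, Eif3h and Eif4b. Of these, 3 fell and 0 rose (37.5%, against 2.79% of all genes lower), 7 had arrays that did not overlap between genotypes (87.5%, against 26.2% of all genes), and the median difference was -0.30. The higher level class, which holds 7 of the 8, had 4.27% of its genes lower and 45.7% without overlap. The 54 cytosolic ribosomal protein genes, given beside them as the largest TOP family, had 48 lower and 0 higher and a median of -0.58. The other 49 members had 1 lower and 5 higher and a median of 0.027. The per-array medians of the 8 were -0.26, -0.10 and -0.13 on the Dicer KO arrays and 0.12, 0.10 and 0.28 on the Dicer WT arrays, and those of the ribosomal protein genes were -0.44, -0.24 and -0.23 in Dicer KO and 0.25, 0.20 and 0.39 in Dicer WT. Dicer KO 1 was the lowest and Dicer WT 3 the highest array in both groups. Eif4b, a cofactor of the eIF4A helicase, was the exception, with a difference of 0.06 ± 0.07 (95% interval -0.10 to 0.22). Whether the groups differ from each other was not tested, since the earlier results on ribosomal proteins were known when the list was written.

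**Figure D3:**
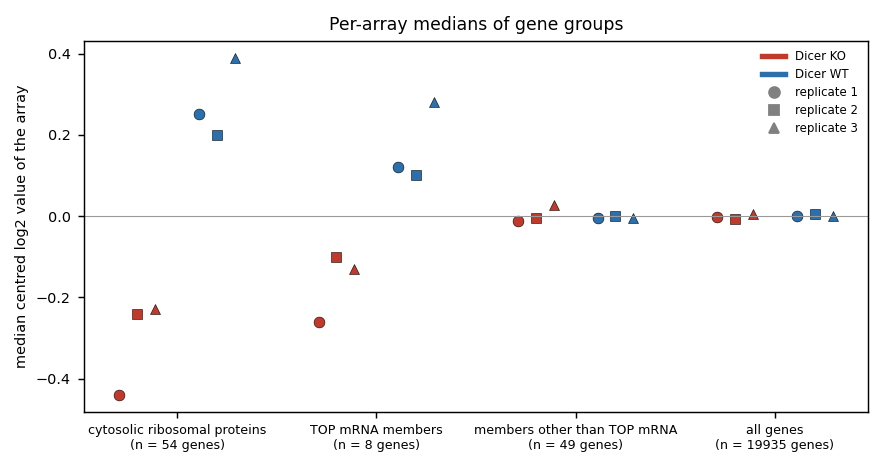
Median centred log2 value of each array over 54 cytosolic ribosomal protein genes, the 8 TOP members, the other 49 members and all 19935 genes (red, Dicer KO; blue, Dicer WT; symbols, replicate numbers). The 3 Dicer KO medians lie below the 3 Dicer WT medians for the ribosomal proteins and the TOP members, and all medians of the other members lie between -0.012 and 0.026.

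The starts of these genes are shown to let the tract be seen. The 8 were listed because their mRNAs are known to carry it, so matches among them restate that choice and support nothing. RefSeq promoter windows of GRCm38.p6 (250 bases before and 50 after the annotated start) matched 44 members, and the first listed window of each gene was read. The letters CTTTC were searched, and likewise CTTCC and likewise CTTTT, on the sense strand from 20 bases before the start to the window's end. They were present in 5 of 5 matched TOP members, in 29 of 43 matched ribosomal protein genes (67.4%) and in 25.5% of the promoters of all genes tested. The annotated start can lie some bases away from the used one, so a match is a description and not a mapped tract. Each line gives 30 bases, 5′ to 3′ on the gene's strand, with the match in capitals, for 4 of the TOP members. The match of Eef1b2 lies 32 bases after the annotated start, and those of the others lie within 12 bases of it.
Eef1a1, chr9:78481706-78481735, minus strand: gctccgccctCTTCCcgagggtgggggaga
Eef1b2, chr1:63176851-63176880, plus strand: tgcgtccgagcgCTTTCgttcaactccggc
Eif3f, chr7:108934409-108934438, plus strand: ggctctctctCTTTCtcggcaagatggctt
Eif4b, chr15:102073751-102073780, plus strand: tcgcgcaggtCTTCCcgtcggacgccgcgc

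The called members outside the TOP group that were matched differed in this feature. Eif2b5 and Eif2s2 held a match and rose, and these matches lie at -14 and 41 bases from the annotated start. Eif3c and Eif4h, which rose, and Eif1b, which fell, held none, and their windows start 10 bases before the annotated start.
Eif2b5, chr16:20498793-20498822, plus strand: atgcgcattcCTTCCtctttctctccctgc
Eif2s2, chr2:154892857-154892886, minus strand: ggcgagctctgcgcaggcgcaCTTCCaacg
Eif3c, chr7:126566347-126566376, minus strand: ctgctcagagggactcggcagcttagctgg
Eif4h, chr5:134639390-134639419, minus strand: acttgcgatcaggcagcgcggcggacagcc
Eif1b, chr9:120492596-120492625, plus strand: gcgcggggctaaatacgcggcgccggccat
The letters CCGGAAG, the core that ETS family factors bind, were also searched on both strands of the 300 bases. They were present in 13 of 44 members (29.5%), against 12.5% of the promoters of all genes tested and 20.2% of those in the higher level class. Of the 6 called members with a window they were found in 3, Eef1b2, Eif1b and Eif3c, and Eef1d, Eif3h and Eif4g2 were not matched.

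The eIF3 complex, the scaffold that holds the small subunit ready for initiation, had members in both directions. Of its 11 measured subunits 1 rose, 1 fell and 9 were not called, and the genotypes' arrays lay apart for 7. All 11 are in the higher level class, so the 18.2% called and 63.6% apart stand beside 23.7% and 45.7% of the genes of that class. Eif3c, a core subunit, had 0.18, 0.45 and 0.33 in Dicer KO and -0.28, -0.19 and -0.18 in Dicer WT. It was 1.45-fold higher in Dicer KO (0.54 ± 0.08, adjusted p = 0.00755) and was called without any 1 array (adjusted p 0.008 to 0.0386). Eif3h, a peripheral subunit and a TOP member, had -0.40, -0.14 and -0.14 in Dicer KO and 0.17, 0.14 and 0.32 in Dicer WT. It was 1.35-fold lower in Dicer KO (-0.44 ± 0.09, adjusted p = 0.0244), and the call was lost without any 1 Dicer WT array or without Dicer KO 2 (adjusted p 0.0539 to 0.0741).

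Beside these, 5 further eIF3 subunits had arrays that did not overlap and were not called. Eif3b, which with Eif3i forms a module that reaches the mRNA entry side, had a difference of 0.25 ± 0.09 (adjusted p = 0.138), and Eif3i one of -0.26 ± 0.08 (adjusted p = 0.0851). Eif3f and Eif3e, both TOP members, had differences of -0.38 ± 0.12 (adjusted p = 0.102) and -0.21 ± 0.07 (adjusted p = 0.151). Eif3k had the largest negative difference of the complex, -0.45 ± 0.15 (adjusted p = 0.127), with Dicer KO 1 at -0.58 and the other Dicer KO arrays at -0.15 and -0.07, against 0.08, 0.07 and 0.39 in Dicer WT. The remaining subunits overlapped between genotypes, with differences of 0.11 for Eif3l, 0.06 for the cap-binding subunit Eif3d, 0.01 for Eif3a and -0.13 for Eif3m.

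**Figure D4:**
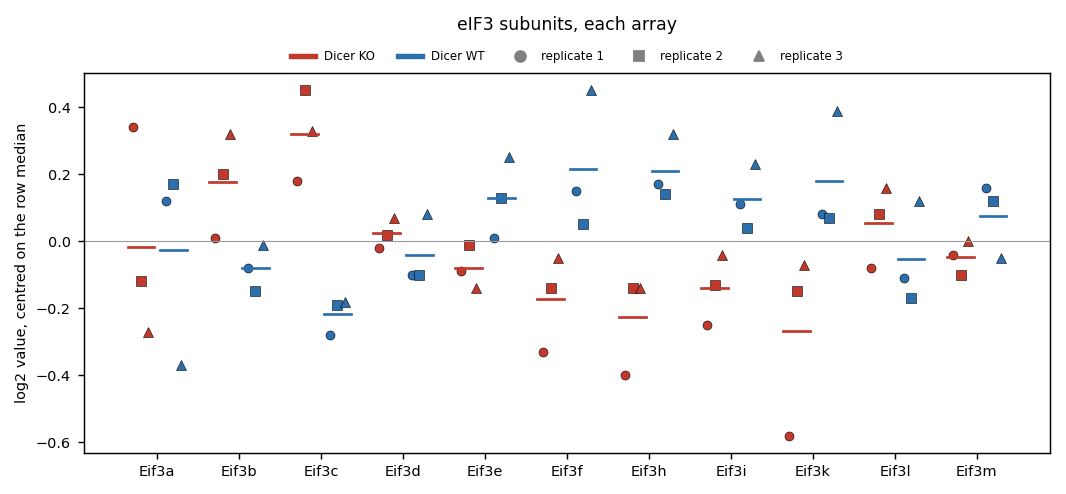
Centred log2 values of the 11 measured eIF3 subunits on each array (red, Dicer KO; blue, Dicer WT; bars, group means; symbols, replicate numbers). Eif3c lies higher on all 3 Dicer KO arrays (0.18 to 0.45, against -0.28 to -0.18 in Dicer WT), Eif3h lower, and Eif3a spreads from -0.27 to 0.34 within Dicer KO.

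Some factors varied widely between replicates, and Eif3a and Eif4a2 did so by more than their genotypes differed (0.01 and -0.19). The within-genotype SD was highest for Eif3a (0.31), Eif4a2 (0.304) and Eif5b (0.285), against a median of 0.108 over the members and 0.0846 over all genes. Eif3a, the large subunit that spans the complex, had 0.34, -0.12 and -0.27 in Dicer KO and 0.12, 0.17 and -0.37 in Dicer WT. Eif4a2, a helicase close to eIF4A1, had 0.32, -0.28 and -0.37 in Dicer KO and 0.24, 0.16 and -0.16 in Dicer WT. In both genes Dicer KO 1 was the highest KO array and Dicer WT 3 the lowest WT array. The per-array medians of the TOP members had the reverse order, although not every member did. Eef1a1 also had Dicer WT 3 as its lowest WT array. What sets these arrays apart was not tested.

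The eIF4 group follows the gene symbols. Beside factors that recruit the mRNA it includes the eIF4E inhibitors Eif4ebp1 and Eif4ebp2, the eIF4E transporter Eif4enif1, Eif4a3 and Eif4a3l1. In this group 2 of 15 rose (13.3%) and 0 fell, with a median difference of 0.057. Of all genes 5.94% rose, and in the higher level class, which holds 9 of the 15, 19.5% rose and the median was 0.10. Eif4g2, a relative of the eIF4G scaffold that lacks the binding site for the cap-binding protein eIF4E, had 0.21, 0.30 and 0.19 in Dicer KO and -0.19, -0.19 and -0.32 in Dicer WT. The arrays lay tightly within each genotype, and it was 1.38-fold higher in Dicer KO (0.46 ± 0.06, adjusted p = 0.00512; adjusted p 0.0107 to 0.0285 without any 1 array). Eif4h, which stimulates the eIF4A helicase, had 0.12, 0.20 and 0.31 in Dicer KO and -0.17, -0.20 and -0.12 in Dicer WT. It was 1.29-fold higher in Dicer KO (0.37 ± 0.06, adjusted p = 0.0144), and it missed the threshold when Dicer WT 1, Dicer WT 2 or Dicer KO 2 was left out (0.0561 to 0.0623) or after centring inside level classes (0.29, adjusted p = 0.0516).

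The helicase Eif4a1 and the cap-binding Eif4e3 lay just outside the threshold, with arrays that did not overlap. Eif4a1 had a difference of 0.25 ± 0.06 (adjusted p = 0.0568), and it was called with quantile normalization (adjusted p = 0.0362). Its 3 rows gave nearly the same values, each with a difference of 0.25, and their adjusted p over rows was 0.0613, 0.06 and 0.0492, where 9.32% of all rows were called. Eif4e3 had a difference of 0.39 ± 0.10 (adjusted p = 0.0521; 0.0372 with quantile normalization). The scaffold Eif4g3 had a difference of -0.13 ± 0.09 and the cofactor Eif4b one of 0.06 ± 0.07. Eif4g1 was not analysed here.

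Eif4e itself, the cap-binding protein, had 0.01, 0.00 and 0.00 in Dicer KO and -0.01, 0.03 and -0.03 in Dicer WT as the mean of its 3 rows. The difference was 0.0003 ± 0.05, with a 95% interval of -0.11 to 0.11. That mean hides rows that disagree: their differences were 0.14 ± 0.07, 0.09 ± 0.07 and -0.23 ± 0.06 (adjusted p over rows 0.3, 0.573 and 0.0545). The rows cannot be placed on the transcript from the tables used here, so the value of Eif4e is uncertain. Eif4ebp1 and Eif4ebp2, which hold eIF4E inactive until mTOR phosphorylates them, had 0.01, -0.04 and 0.00 and -0.27, 0.01 and 0.07 in Dicer KO, against -0.01, 0.00 and 0.09 and -0.01, 0.00 and 0.00 in Dicer WT. Both overlapped between genotypes, with 95% intervals of the difference of -0.16 to 0.08 for Eif4ebp1 and -0.27 to 0.15 for Eif4ebp2. Of the other cap-binding members, Eif4e2, which competes for caps without recruiting eIF4G, and Eif4e1b, the oocyte form, had differences of 0.08 and -0.10. The eIF4E transporter Eif4enif1 had one of 0.08.

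The eIF4A-like helicase Eif4a3 belongs to the exon junction complex. Its own row had a difference of 0.21 ± 0.11 (adjusted p = 0.361), and that of its near-copy Eif4a3l1 one of 0.05 ± 0.09.

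Of the 5 factors that bring the initiator tRNA, 1 rose and 0 fell. Of all genes 5.94% rose, with 19.5% in the higher level class and 3.04% in the lower. Eif2s2, the beta subunit of eIF2, had 0.28, 0.13 and 0.07 in Dicer KO and -0.05, -0.22 and -0.20 in Dicer WT. It was 1.25-fold higher in Dicer KO (0.32 ± 0.08, adjusted p = 0.0446), and the call was lost without any 1 of the 6 arrays (adjusted p 0.0517 to 0.138). Its 2 rows had differences of 0.47 ± 0.11 and 0.17 ± 0.06. The gamma subunit is encoded on both sex chromosomes. Eif2s3x had -0.06, 0.06 and 0.14 in Dicer KO and -0.26, -0.07 and 0.08 in Dicer WT, and Eif2s3y had -0.04, -0.03 and 0.01 in Dicer KO and -0.01, 0.05 and 0.09 in Dicer WT. Neither was called (adjusted p 0.522 and 0.548), and no array stood apart for Eif2s3y. Eif2a, an eIF2-independent tRNA carrier, had 0.28, 0.04 and 0.08 in Dicer KO and -0.04, -0.08 and -0.33 in Dicer WT, with no overlap and a difference of 0.28 ± 0.10 (adjusted p = 0.146). Eif2d, another such carrier, had a difference of 0.11 ± 0.08. Eif2s1 was not analysed here.

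Of the 5 subunits of eIF2B, which exchanges GDP for GTP on eIF2, 1 rose and 0 fell, and 3 had arrays apart. All 5 are in the lower level class, where 3.04% of genes rose and 22% had arrays apart. Of all genes 5.94% rose and 26.2% had arrays apart. Eif2b5, the catalytic epsilon subunit, had 0.06, 0.13 and 0.21 in Dicer KO and -0.22, -0.22 and -0.06 in Dicer WT. It was 1.23-fold higher in Dicer KO (0.30 ± 0.07, adjusted p = 0.0371), and the call held without Dicer WT 3 and was lost without any 1 of the other arrays (adjusted p 0.0503 to 0.127). Eif2b4 and Eif2b3 had arrays that did not overlap, with differences of 0.23 ± 0.10 (adjusted p = 0.22) and -0.20 ± 0.07 (adjusted p = 0.127). Eif2b1 and Eif2b2 overlapped, at 0.03 and 0.12.

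Of the eIF1 family, which guides scanning and start codon choice, 1 of 4 members fell. All 4 are in the lower level class, where 2.48% of genes fell, against 2.79% of all genes. Eif1b, a close relative of eIF1, had -0.25, -0.16 and -0.10 in Dicer KO and 0.20, 0.10 and 0.48 in Dicer WT. It was 1.35-fold lower in Dicer KO (-0.43 ± 0.10, adjusted p = 0.0439), with Dicer WT 3 well above the other arrays. The call was lost without Dicer WT 1 or any 1 Dicer KO array (adjusted p 0.0728 to 0.136). Of the eIF1A genes, Eif1ax had a difference of -0.11 ± 0.05, Eif1a one of 0.04 ± 0.10 and the eIF1A-domain gene Eif1ad one of -0.11 ± 0.07.

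The late initiation factors were not called, with a lowest adjusted p of 0.216 over 5 genes and 1 at an unadjusted p under 0.05. Eif5b, the GTPase that joins the ribosomal subunits, had 0.43, 0.05 and -0.09 in Dicer KO and 0.00, 0.00 and -0.52 in Dicer WT. Its arrays overlapped between genotypes, with a difference of 0.30 ± 0.18 (95% interval -0.12 to 0.73), and it was -0.018 without Dicer WT 3 and Dicer KO 1. Eif5, which triggers GTP hydrolysis by eIF2, did not overlap between genotypes, at 0.27 ± 0.11 (adjusted p = 0.216). Eif5a, the hypusine-bearing factor that helps stalled ribosomes, had -0.07, -0.06 and 0.25 in Dicer KO and 0.01, -0.03 and 0.05 in Dicer WT. The difference of Eif5a was 0.03 ± 0.09, with a 95% interval of -0.19 to 0.24. Its paralogue Eif5a2 had a difference of -0.09 ± 0.06, and Eif6, which keeps large subunits from joining early, one of -0.15 ± 0.09.

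Other genes of translation were described from a list of regulators, termination factors and modifying enzymes. Of 49 measured, 7 rose and 1 fell, or 16.3% against 8.73% of all genes, and their median difference was 0.019. The higher level class, which holds 22 of the 49, had 23.7% of its genes called (19.5% higher), and the lower class 5.52%. The largest rise was that of Mknk2, a kinase that phosphorylates eIF4E, with 0.34, 0.35 and 0.39 in Dicer KO and -0.56, -0.60 and -0.34 in Dicer WT (0.86 ± 0.08, adjusted p = 0.00158), and it was called under all 16 alternatives. Its relative Mknk1 had a difference of 0.02 ± 0.05. The eIF2 kinase Eif2ak3 (PERK) rose by 0.32 ± 0.06 (adjusted p = 0.0191). The other eIF2 kinases Eif2ak1, Eif2ak2 and Eif2ak4 were not called, at 0.21, 0.14 and -0.22.

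The remaining calls came from different steps. Paip1, a partner of the poly(A) binding protein, rose by 0.44 ± 0.07 (adjusted p = 0.00992), while Pabpc1 itself, whose mRNA has a TOP tract too, had a difference of -0.0005 ± 0.07. Larp1, which binds TOP mRNAs, rose by 0.41 ± 0.07 (adjusted p = 0.0135), the release factor Etf1 by 0.41 ± 0.07 (adjusted p = 0.0174), the kinase Rps6ka3 by 0.67 ± 0.11 (adjusted p = 0.0129) and the helicase Ddx3x by 0.77 ± 0.18 (adjusted p = 0.0428). Tpt1, another TOP mRNA, had -0.29, -0.20 and -0.11 in Dicer KO and 0.16, 0.12 and 0.18 in Dicer WT and fell by 0.35 on the log2 scale (-0.35 ± 0.06, adjusted p = 0.0147). None of the 9 mitochondrial factors and none of the 7 genes of hypusine and diphthamide synthesis was called by limma (2 of each at an unadjusted p under 0.05). The calls numbered 4 higher and 0 lower without Dicer WT 1, 3 and 0 without Dicer KO 2, and 8 and 3 without Dicer WT 3. Without any 1 array Mknk2 and Paip1 were called, Larp1 was lost without Dicer WT 2 alone (adjusted p = 0.0525), Rps6ka3 without Dicer KO 2 alone (adjusted p = 0.0621), Etf1 and Tpt1 when Dicer WT 1 or Dicer KO 2 was dropped (up to 0.0739 and 0.0664), and Eif2ak3 and Ddx3x without any of several single arrays (up to 0.0692 and 0.13).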

How the data were processed

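RNA of 6 samples, 3 Dicer KO and 3 Dicer WT, was measured on 1-colour arrays, and genotypes came from the sample titles. The authors deposited 1 table of 28815 rows of log values, read here as log2; the base is not stated. MAS5 is the tool listed in the submitters' processing notes; its version and its part in these values are not stated. Every row median was 0 within 5e-07, so no filter on low values was possible, and a planned 30th percentile filter was not run. Rows with 1 gene symbol in GEO's platform annotation (21780) were used. Of these, 21689 took the symbol of the RefSeq table of GRCm38.p6 by gene ID. Differences were fitted with limma 3.58.1 (R 4.3.3; lmFit, eBayes, Benjamini-Hochberg over 19935 genes), and the script was tested on simulated data. The members, the lists and the rule for named genes (all called members, 8 measured factors fixed by name and the largest difference of each uncalled complex) were chosen with earlier results of these data known. Eif3a, Eif3k, Eif4a2 and the other translation genes that were not called were singled out after their values were seen. Of 54 list symbols, 49 were measured; Dap5, a synonym of the member Eif4g2, was left out with the others. Precision is limited by the number of arrays; the replicates are called biological, but separate animals are not stated, so p-values measure the spread between these samples. One promoter window is not reported here.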

Additional observations from a re-analysis of the deposited data

Results flagged for a closer look

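A pair of rows outside the comparisons, because each is shared by Eif4a3 and its near-copy Eif4a3l1, had a higher signal on the Dicer KO arrays. One had 0.23, 0.34 and 0.32 in Dicer KO and -0.31, -0.23 and -0.25 in Dicer WT (0.56 ± 0.05, limma adjusted p = 0.00236 over all 28815 rows). The other had 0.24, 0.36 and 0.31 in Dicer KO and -0.32, -0.25 and -0.24 in Dicer WT (0.57 ± 0.05, adjusted p = 0.00242). The 9 other rows that name a factor together with other genes were not called, among them a row shared by Eef1a1, Mir703 and D630045J12Rik (-0.35 ± 0.10, adjusted p = 0.0892). The same test called 9.32% of all rows.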

How the results depend on the processing

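Of 16 alternatives, 13 were planned and 3 added after seeing the data: leaving out Dicer WT 3 and Dicer KO 1, leaving out Dicer WT 1 and Dicer WT 3, and centring within level classes. Members called higher and lower in Dicer KO numbered 5 and 4. With any 1 array left out they numbered 2 to 4 and 1 to 3, and other translation genes 3 to 8 higher and 0 to 3 lower. The members' median of -0.037 then ranged over -0.05 to -0.022. It was -0.052 with quantile normalization and -0.062 when each gene was read at its row with the lowest p, a choice made by the test itself. It was -0.064 over genes on 1 row, -0.018 without Dicer WT 3 and Dicer KO 1 and -0.061 with centring within level classes. The replicate block gave 8 members lower, and 2063 calls over all genes, against 1741 without it. Same-numbered arrays of the genotypes had correlations of 0.274, -0.0763 and 0.3, and the other pairs ranged from -0.366 to 0.227. These values do not settle whether the numbers pair the arrays. Other translation genes lower numbered 3 with the block, 3 with array weights, 0 over genes on 1 row, 5 without Dicer WT 3 and Dicer KO 1 and 2 with centring within level classes. Without Dicer WT 1 and Dicer WT 3, limma called 0 members higher, 0 lower, and 1 other gene higher and 0 lower; the lone WT array is assumed to vary like the others. Over all genes the calls numbered 1741, against 213 in that setting.

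Of the 20 members followed under the alternatives, signs turned for 4 that were not called. Of the others, Eif3a, at 0.01, was -0.34 (limma adjusted p = 0.0483) without Dicer WT 3 and Dicer KO 1, where Eif4a2 (-0.52, 0.011) and Eif3b (0.37, 0.0318) also passed the threshold; those arrays were chosen for their values, so these calls support nothing. Eif4e, at 0.0003, was -0.0051 with array weights and -0.23 at its row with the lowest p. It was -0.017 without Dicer WT 3 and Dicer KO 1 and -0.033 without Dicer WT 1 and Dicer WT 3. With centring within level classes Eif4e was -0.081, and with 1 array left out -0.013 to 0.017. Eif5a was -0.0034 with array weights, -0.054 with centring within level classes and -0.077 to 0.081 with 1 array left out. Eif4ebp2 was 0.041 without Dicer WT 3 and Dicer KO 1 and -0.13 to 0.039 with 1 array left out. Eif5b was -0.018 without Dicer WT 3 and Dicer KO 1. The causes were not tested. The number of arrays limits precision, and low signal could not be filtered.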
